A study of Mus musculus with 21 samples.

Results

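Glucocorticoid receptor (GR) binding near 8 mouse genes of amino acid breakdown and the urea cycle was followed in liver by chromatin immunoprecipitation and sequencing (ChIP-seq). The genes were Tat, Got1, Gpt2, Cps1, Tdo2, Sds, Arg1 and Ass1. Overlapping peaks of the 18 GR libraries (1 bp or more) were joined into sites, and a site was given to the protein-coding gene whose span lay nearest to its centre, within 50 kb. Of 7398 sites in the series 20 belonged to these genes. They lay near 6 of the 8 genes, and Tdo2 and Sds had 0 sites. Each of the 6 had at least 1 site in 3 or more libraries, as had 1613 of all 21883 protein-coding genes. The 8 genes were chosen with earlier results of these data known, so this is a description. All mice were of the C57BL/6J strain. They were injected intraperitoneally with 10 mg/kg of the synthetic glucocorticoid dexamethasone (DEX) in normoxia, after 6 h or after 24 h at 7% oxygen, or with phosphate-buffered saline (PBS) under the same 3 oxygen conditions, and livers were taken 2 h after injection. Each of the 6 groups held 3 libraries, which the series' design calls biological replicates. The design asked what DEX does to GR binding and whether hypoxia alters it.

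GR is a nuclear receptor that moves to the nucleus when it holds a glucocorticoid and binds short palindromic DNA elements, mostly far from gene starts. In the fasted or stressed liver glucocorticoids raise enzymes that strip nitrogen from amino acids so that their carbon can be used for glucose. The freed nitrogen goes into urea through a cycle that starts in mitochondria with Cps1 and ends with Arg1. Tat, the enzyme of the first step of tyrosine breakdown, is a textbook glucocorticoid-induced gene of rat liver.

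Detection means that a library's own peak list holds a peak in the site. The tag count of a site is that of its highest peak, as the authors normalized it, per 10000000 tags of a library. A mean tag count is taken over the libraries that called the site and leaves out the others, where binding can still lie below the caller's limit. The minimum of 50 tags per peak was not scaled to depth and stood for 37.9 to 86.6 normalized tags in DEX libraries and 11.5 to 57.7 in PBS libraries. DEX libraries held 5772670 to 13181686 tags and PBS libraries 8667179 to 43645787. Of these tags 1.38 to 3.68% lay in peaks with DEX and 0.15 to 1.23% with PBS. Peak lists held 1235 to 3659 peaks with DEX and 78 to 3915 with PBS, or 78 to 751 with PBS without normoxia PBS replicate 1. That library stood apart, with the greatest depth, a peak size of 280 bp against 178 to 196 bp elsewhere, and a cap of 2 tags per base against 1. The 6 h hypoxia DEX replicate 2 library also stood apart. It was the shallowest, and its median tag count at the 935 sites called in all 9 DEX libraries was 202.7, against 89.7 to 156.3 in the other 8. ChIP-seq gives no expression level, so the tissue label could be set only beside sites at marker genes. A site in 3 or more libraries was found at 3 of the 7 hepatocyte genes matched (Alb, Apoc3 and Fgb) and 3 of 8 endothelial genes. It was found at 0 of 8 Kupffer cell and leukocyte genes and 0 of 8 stellate cell and cholangiocyte genes. Of all 21883 protein-coding genes 1613 had such a site within 50 kb. At so low a share, 0 of 8 genes says little about a cell type. In whole liver, fewer cells of a type and less binding per cell cannot be told apart.

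Detection of GR sites passed the test as higher with DEX at Tat, Got1, Gpt2 and Ass1, though not at all their sites. Of the 20 sites, 12 were called in 3 or more libraries and could be tested. At 7 of these 12 a peak was called more often in DEX than in PBS libraries, at 0 less often (exact two-sided Cochran-Mantel-Haenszel test with oxygen condition as stratum, Benjamini-Hochberg adjusted over all 2563 sites tested, threshold 0.05). The same call was made at 55.3% of all tested sites (1418 of 2563), so the share at these genes was near that of the series. The lower call was made at 0.039% of all tested sites. The median difference in the share of calling libraries, DEX minus PBS, was 0.556 at these genes and 0.556 over all tested sites. The sites called more often were 4 at Tat and 1 each at Got1, Gpt2 and Ass1. The Cps1 site, the Arg1 site, 2 Gpt2 sites and 1 Tat site did not pass. The difference was above 0 at 11 of the 12 sites, Cps1 among them.

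**Figure D1:**
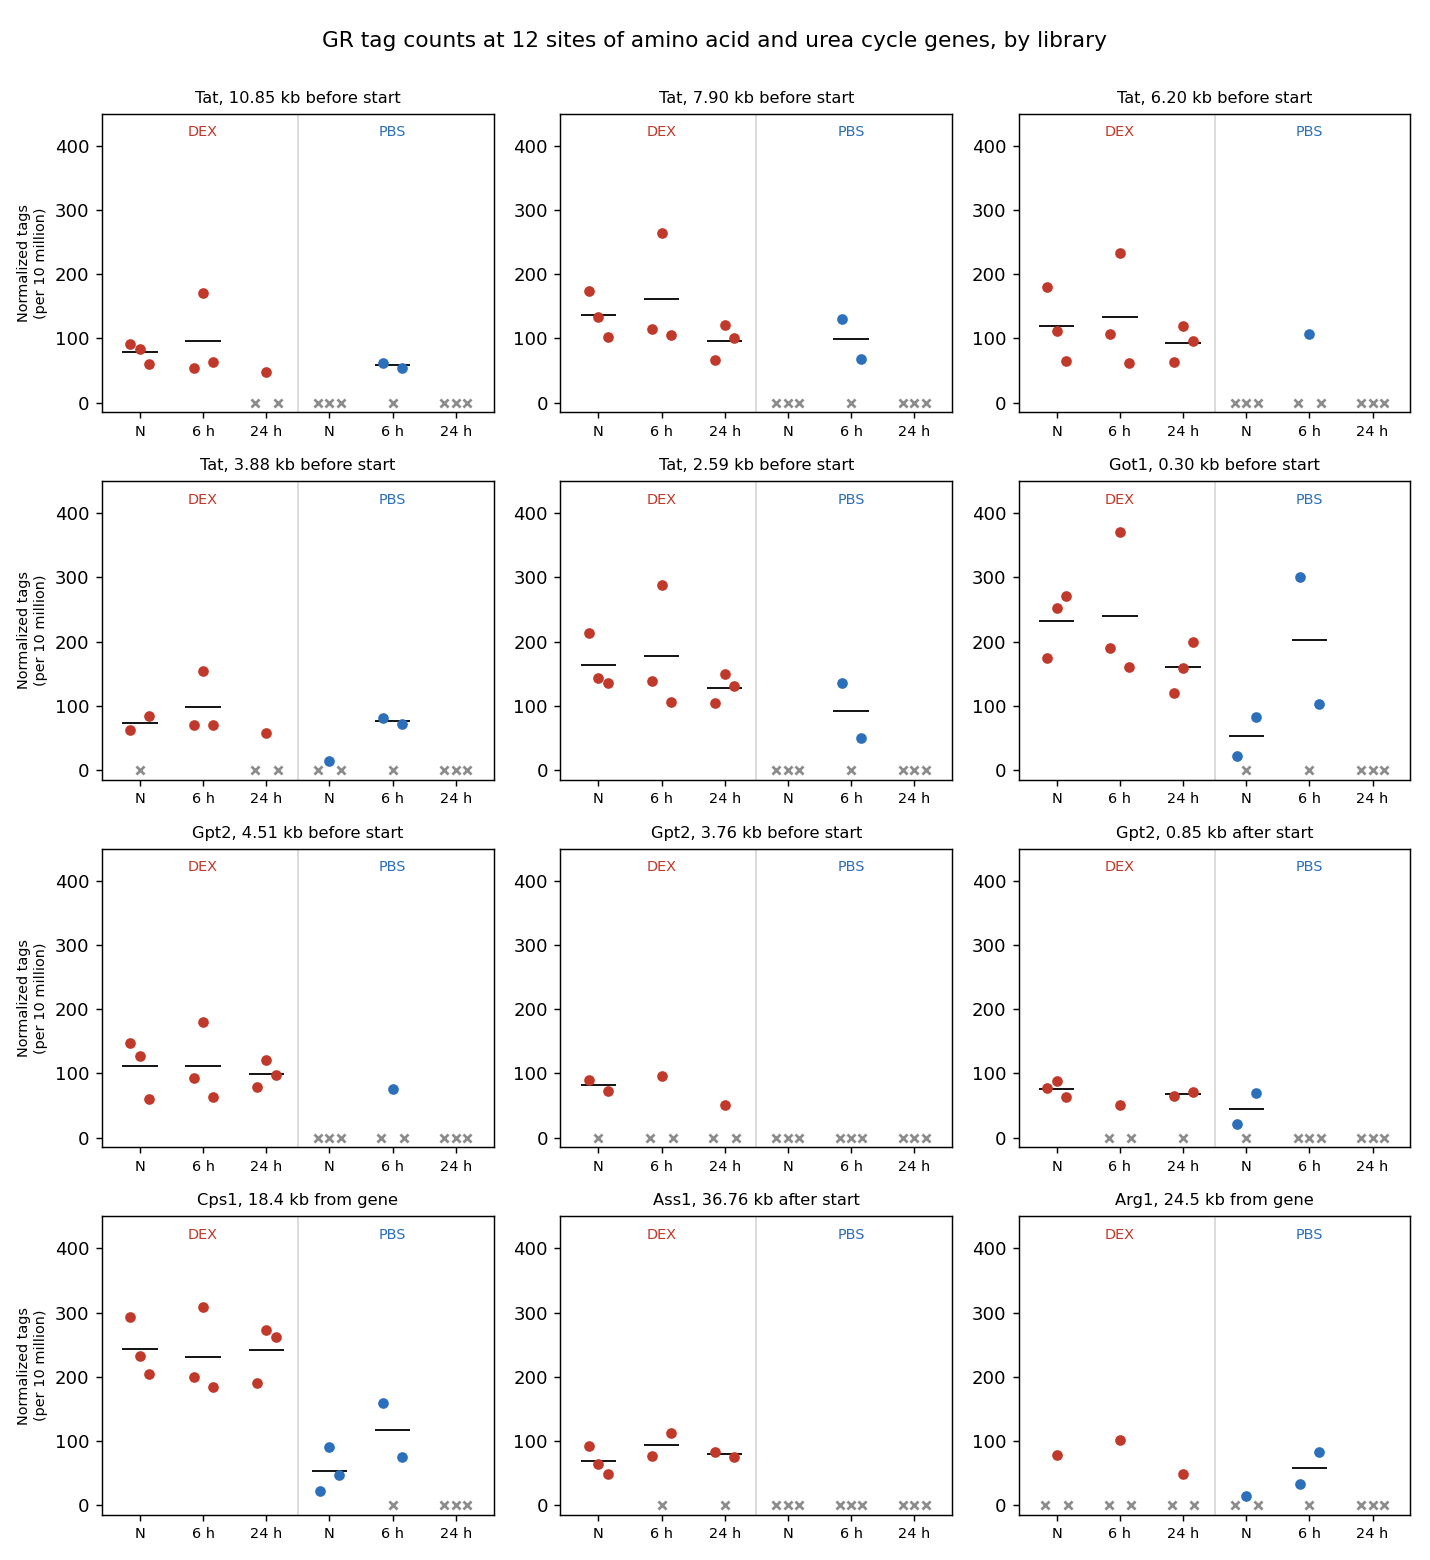
Normalized tag count (vertical axis, tags per 10000000) of each library at the 12 sites called in 3 or more libraries. Each panel has DEX on the left (red) and PBS on the right (blue), each in normoxia (N), after 6 h and after 24 h of hypoxia. Grey crosses at 0 mark libraries with no peak there, and lines mark the mean of the calling libraries. The 24 h hypoxia PBS libraries have no peak in any panel, and Cps1 has a peak in all 9 DEX and 5 PBS libraries.

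Tat carried the most sites. It had 6, of which 5 were found in 3 or more libraries, a number reached by 24 of the 1613 genes that had any such site within 50 kb. All 5 lay before the RefSeq transcription start, and 3 of them were called in all 9 DEX libraries. The remaining site, 1.23 kb after the start, was called in normoxia PBS replicate 1 alone, at 15.4 tags. The span of Tat in the gene table begins before that start, so the sites 3.88 and 2.59 kb before the start lie inside the span.

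The strongest Tat site lay 2.59 kb before the start (chromosome 8, 109987717 to 109987979, mm10). In DEX libraries it had 213.2, 143.2 and 136.2 tags in normoxia, 138.1, 287.6 and 105.6 after 6 h of hypoxia, and 104.3, 149.2 and 131.3 after 24 h. Among PBS libraries it was called in replicates 2 and 3 of 6 h hypoxia alone, at 135.2 and 50.2 tags. Apart from normoxia PBS replicate 1 these held the longest PBS peak lists (751 and 622 peaks). Every DEX library thus had a peak, against 2 of 9 PBS libraries, and the higher PBS value lay within the DEX range. The mean was 157 ± 58.5 tags with DEX (SD, n = 9) and 92.7 ± 60.1 with PBS (SD, n = 2). Detection was higher with DEX at an adjusted p of 0.00859 in the exact Cochran-Mantel-Haenszel test.

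A second Tat site lay 7.90 kb before the start (109982395 to 109982669). It had 173.7, 133.6 and 101.4 tags with DEX in normoxia, 114.5, 263.3 and 104.7 after 6 h and 65.8, 120.9 and 101.2 after 24 h. With PBS it had 129.6 and 67.0 tags after 6 h and no peak in the other 7 libraries. It shared both the detection pattern of the site at 2.59 kb and its adjusted p of 0.00859 in the exact test. The site 6.20 kb before the start (109984116 to 109984348) ranged from 60.9 to 232.1 tags with a median of 106.6 in all 9 DEX libraries. It was called at 107.0 tags in 1 PBS library, 6 h hypoxia PBS replicate 2, and was detected more often with DEX (adjusted p = 0.00438, exact test). With a common limit of 86.6 tags in every library this call was lost (adjusted p = 0.0886, exact test), while leaving out single libraries gave 0.00165 to 0.00438.

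The 3 sites kept an order. In each of the 9 DEX libraries the site at 2.59 kb had more tags than the site at 7.90 kb (mean ratio 1.22) and than the site at 6.20 kb (mean ratio 1.43). The site at 6.20 kb exceeded that at 7.90 kb in 1 of 9. These are sites of the same gene in the same libraries, so the order is a description.

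The outermost Tat site, 10.8 kb before the start (109979439 to 109979744), was called in 7 DEX and 2 PBS libraries. Its tags with DEX were 91.8, 84.0 and 60.4 in normoxia, 54.2, 169.8 and 63.8 after 6 h, and 47.5 in 1 library after 24 h. Its tags with PBS were 62.0 and 53.3 after 6 h, inside the DEX range. It was the weakest of the called Tat sites, with 81.6 ± 42.0 tags with DEX (SD, n = 7) and 57.7 ± 6.15 with PBS (SD, n = 2), and its adjusted p in the exact test was 0.0452. That call was lost without 24 h hypoxia DEX replicate 3 (adjusted p = 0.0785), without 6 h hypoxia PBS replicate 1 (0.0770) and without both libraries that stood apart (0.0506), in the same exact test. Leaving out single libraries gave adjusted p of 0.0190 to 0.0785 in that exact test. With the replicate number as a block the adjusted p was 0.106, also in that test, above the threshold. Each stratum then held 1 DEX and 1 PBS library. Every stratum where only 1 of them called the site favoured DEX, so the blocked test could give no lower p. The site 3.88 kb before the start (109986409 to 109986700) was called in 6 DEX libraries at 57.7 to 154.2 tags and in 3 PBS libraries at 14.0, 81.1 and 72.0 tags. It was not called in normoxia DEX replicate 1, the DEX library with the most peaks, and did not pass (adjusted p = 0.335, exact test).

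**Figure D2:**
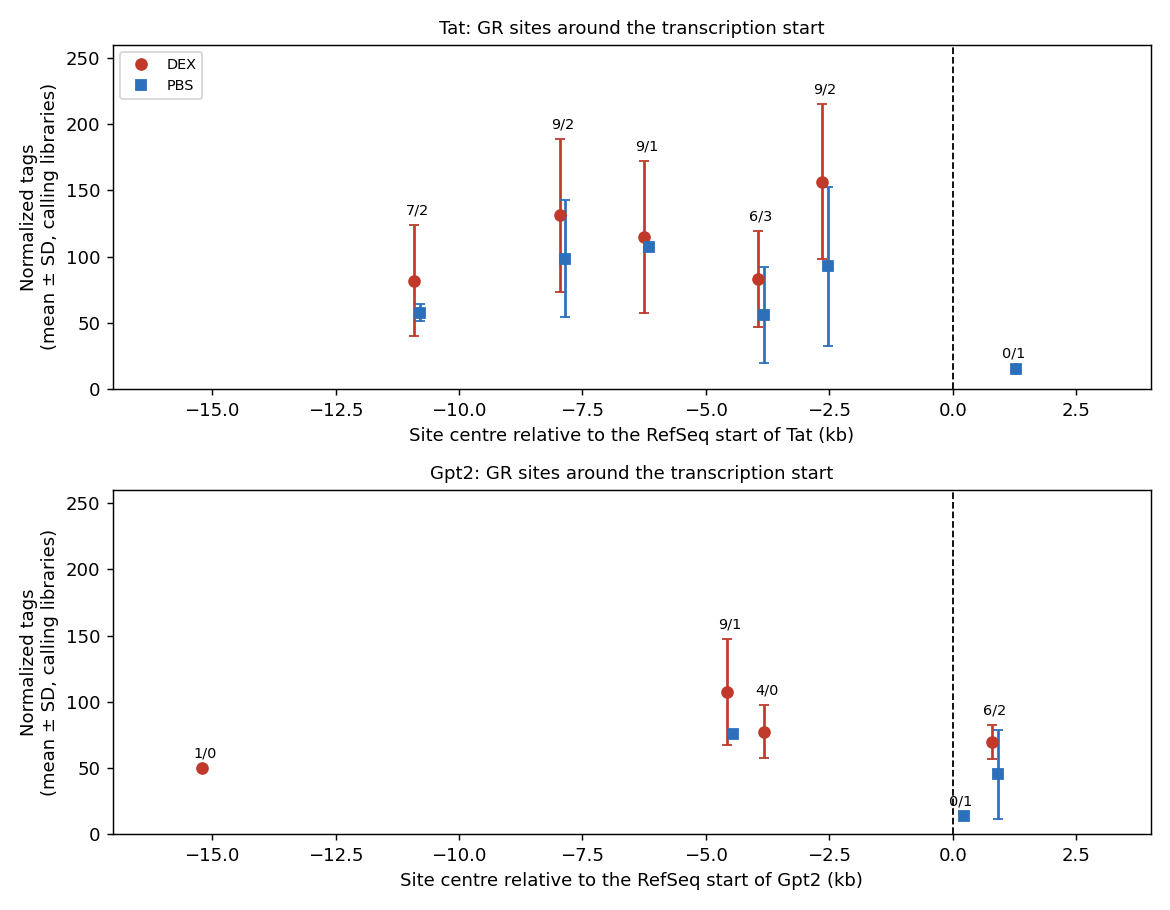
Position of all Tat and Gpt2 sites relative to the RefSeq transcription start (horizontal axis, kb, dashed line at the start) and their normalized tag count (vertical axis, mean ± SD over calling libraries, DEX circles and PBS squares). Numbers give calling DEX and PBS libraries. The 5 Tat sites found in 3 or more libraries all lie before the start, 10.8 to 2.59 kb from it, while Gpt2 has such sites on both sides.

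Got1, the cytosolic aspartate aminotransferase, had the one site of these genes that reached into a promoter window (chromosome 19, 43524747 to 43525074), its centre 305 bp before the start on the minus strand. With DEX it had 174.5, 252.9 and 270.9 tags in normoxia, 189.7, 370.7 and 159.9 after 6 h, and 120.5, 159.3 and 200.1 after 24 h. With PBS it had 22.0 and 83.1 tags in normoxia and 300.8 and 103.6 after 6 h. All 9 DEX libraries and 4 of 9 PBS libraries thus had a peak, and 1 PBS value stood within the DEX range while 3 lay under it. The means were 211 ± 76.0 tags with DEX (SD, n = 9) and 127 ± 121 with PBS (SD, n = 4).

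Detection at Got1 was higher with DEX at an adjusted p of 0.0452 in the exact test. With the replicate number as a block it was 0.106 in the same test, above the threshold. Each stratum then held 1 DEX and 1 PBS library. Every stratum where only 1 of them called the site favoured DEX, so that test could give no lower p here. The call was lost without normoxia PBS replicate 3 (adjusted p = 0.0743) or without 6 h hypoxia PBS replicate 1 (0.0770), and leaving out single libraries gave adjusted p of 0.0200 to 0.0770, in the same exact test. By group mean the order was 6 h hypoxia DEX (240.1 ± 114 tags), normoxia DEX (233 ± 51.3), 6 h hypoxia PBS (202 ± 139, n = 2), 24 h hypoxia DEX (159.97 ± 39.8) and normoxia PBS (52.6 ± 43.2, n = 2). Neighbours among the first 4 of these differed by less than the larger of their SDs, normoxia PBS lay lower by more than that, and 24 h hypoxia PBS had no peak. Normoxia DEX and 24 h hypoxia DEX, which are not neighbours in this order, differed by more than either of their SDs. In the test of tag counts given below, Got1 was not called at 24 h. Of the 4 Got1 sites the other 3 were called in normoxia DEX replicate 1 alone, at 47.0 to 70.6 tags.

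The 250 bases before the Got1 start are shown because the GR peaks reached into them, and those of Tat because its 5 sites all lay farther out. Both run 5′ to 3′ toward the start on the gene's own strand and come from RefSeq on GRCm38.p6 (Got1 chr19:43524606-43524855, minus strand; Tat chr8:109990186-109990435, plus strand). Capitals mark the 35 bases of the Got1 window that lay under a peak of a DEX library.
Got1: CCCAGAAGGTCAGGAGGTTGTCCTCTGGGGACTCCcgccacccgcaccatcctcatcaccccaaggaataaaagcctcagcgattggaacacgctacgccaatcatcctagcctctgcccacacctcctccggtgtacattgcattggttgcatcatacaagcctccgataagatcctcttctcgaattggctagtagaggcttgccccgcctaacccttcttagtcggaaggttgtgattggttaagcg
Tat: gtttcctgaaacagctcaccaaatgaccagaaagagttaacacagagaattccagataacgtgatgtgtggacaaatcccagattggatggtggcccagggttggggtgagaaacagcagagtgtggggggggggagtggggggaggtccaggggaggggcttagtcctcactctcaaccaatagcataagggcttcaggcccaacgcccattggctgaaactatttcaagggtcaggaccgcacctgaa

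The peaks that touched the Got1 window came from 8 DEX and 4 PBS libraries, and no peak touched the same window of Tat, Gpt2, Tdo2 or Ass1, the other genes matched in the promoter table. The GR half-site AGAACA, searched on both strands, was in 0 of these 5 windows, and 16.2% of 27025 mouse promoter windows of the same length held it. The full palindrome, made of AGAACA, any 3 bases and TGTTCT and so containing the half-site, was also in 0 of the 5, and 1 promoter of all (0.0037%) held it. The letters ACGTG, the core of the element bound by hypoxia-inducible factors, were found once in the Tat window, 192 bp before the start, and on both strands of the Ass1 window, 36 and 35 bp before the start, where the matches overlap. They were in 16.6% of all promoter windows. These matches describe the letters of the windows. The sequences of the distal sites were not used here.

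Gpt2, the mitochondrial alanine aminotransferase, had 5 sites, of which 3 were found in 3 or more libraries. The main one lay 4.51 kb before the start (chromosome 8, 85487952 to 85488186). With DEX it had 147.9, 126.9 and 60.4 tags in normoxia, 92.6, 180.2 and 62.8 after 6 h, and 78.6, 120.9 and 98.1 after 24 h, and with PBS 75.5 tags in 6 h hypoxia PBS replicate 2 alone. All 9 DEX libraries and 1 PBS library thus had a peak, and the adjusted p for detection was 0.00438 in the exact test.

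The other Gpt2 sites were weaker. The site 3.76 kb before the start (85488721 to 85488919) had 90.3 and 72.5 tags in normoxia, 95.3 after 6 h and 51.4 after 24 h in 4 DEX libraries, and no PBS library called it. The site 0.849 kb after the start (85493285 to 85493565) had 51.6 to 88.8 tags in 6 DEX libraries and 21.3 and 69.1 tags in 2 normoxia PBS libraries. Neither passed (adjusted p = 0.131 each, exact test). The site at 3.76 kb gained a call without normoxia DEX replicate 3 (adjusted p = 0.0394) and that at 0.849 kb without 24 h hypoxia DEX replicate 1 (0.0396), in the same exact test. The site at 0.849 kb was also called when tag counts were ranked (adjusted p = 0.0324, exact permutation test). Over all libraries left out singly, adjusted p ran from 0.0394 to 0.229 and from 0.0396 to 0.2305 in the exact test of detection.

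Cps1, the mitochondrial carbamoyl phosphate synthetase that feeds ammonia into the urea cycle, had 1 site, 18399 bp outside its span (chromosome 1, 67103887 to 67104167), with the highest mean tag count with DEX of all 20. With DEX it had 292.8, 231.9 and 203.6 tags in normoxia, 199.3, 308.3 and 183.6 after 6 h, and 189.7, 272.3 and 262.6 after 24 h. With PBS it had 22.7, 91.1 and 47.3 tags in normoxia and 158.8 and 75.7 after 6 h. The lowest DEX value lay above the highest PBS value, so the values of calling libraries did not overlap. How many sites of the series show this was not counted. PBS libraries as a whole had a smaller share of their tags in peaks than DEX libraries. The means were 238 ± 47.1 tags with DEX (SD, n = 9) and 79.1 ± 51.7 with PBS (SD, n = 5).

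With a peak in 5 PBS libraries, Cps1 missed the threshold for detection (exact p = 0.05, adjusted p = 0.0764, exact Cochran-Mantel-Haenszel test). It passed in that test when peaks of every library had to reach 86.6 tags (adjusted p = 0.00849) or 8-fold over input (0.0428). When tag counts were ranked within oxygen conditions with uncalled libraries lowest, it passed too (adjusted p = 0.000913, exact permutation test). That rank test called 67.1% of all tested sites in either direction. It also passed without 6 h hypoxia PBS replicate 2 (0.0387) or replicate 3 (0.0384), and leaving out single libraries gave 0.0384 to 0.132, in the exact Cochran-Mantel-Haenszel test. By group mean the order was normoxia DEX (243 ± 45.6 tags), 24 h hypoxia DEX (242 ± 45.2), 6 h hypoxia DEX (230.4 ± 67.9), 6 h hypoxia PBS (117 ± 58.8, n = 2) and normoxia PBS (53.7 ± 34.6). The 3 DEX means differed by less than their SDs, and the PBS means lay lower by more than that.

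Ass1, which joins citrulline and aspartate in the urea cycle, had 1 site inside the gene, 36.8 kb after its start (chromosome 2, 31506910 to 31507141). With DEX it had 92.6, 64.9 and 48.0 tags in normoxia, 76.0 and 112.6 in 2 libraries after 6 h, and 83.6 and 75.1 in 2 after 24 h. No PBS library called it. The mean over the 7 calling DEX libraries was 79.0 ± 20.5 tags (SD), where a peak needed at least 37.9 to 86.6 tags depending on the library. The adjusted p for detection was 0.0112 in the exact test.

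Arg1, the arginase that releases urea, had 3 sites. The site in 3 or more libraries lay 24467 bp outside the span (chromosome 10, 24951750 to 24952124) and was called once per oxygen condition with DEX, at 78.1 tags in normoxia, 102.2 after 6 h and 49.0 after 24 h. With PBS it was called in 3 libraries, at 13.7 tags in normoxia and 33.8 and 83.4 after 6 h. The same number of DEX and PBS libraries called it (adjusted p = 1, exact test), and the values overlapped. Both other Arg1 sites, 1 inside the gene at 71.3 tags and 1 21117 bp outside it at 42.5 tags, were called in normoxia DEX replicate 1 alone.

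Tdo2, the liver enzyme of the first step of tryptophan breakdown, and Sds, the serine dehydratase that makes pyruvate from serine, had no site of their own. Sites did lie within 50 kb of their spans but nearer to other genes. Near Sds there were 4, the strongest 4.795 kb from Sds inside its paralogue Sdsl (chromosome 5, 120471612 to 120471892), called in 9 DEX libraries at 401 ± 115 tags and in 5 PBS libraries at 97.8 ± 102. The nearest, 3.581 kb from Sds and 141 bp outside Sdsl, was called in 6 DEX libraries at 101.5 ± 28.5 tags and in 2 PBS libraries at 91.0 ± 67.3. Another, inside Slc8b1 and 30.6 kb from Sds, was called in 9 DEX and 1 PBS libraries. Near Tdo2 there were 2, both inside Ctso, and the one in 3 libraries was called with PBS alone, at 36.4 ± 6.87 tags.

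Ass1 likewise had 4 sites within 50 kb that lay nearer to Hmcn2. One of them, 9.816 kb from the Ass1 span (chromosome 2, 31460314 to 31460594), was called in all 18 libraries, at 547 ± 142 tags with DEX and 189.9 ± 133 with PBS. None of the 20 sites of the 8 genes was called in all 18 libraries. The rule by nearest span decides that such sites count for the neighbour, and which gene a site acts on was not tested.

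No difference between oxygen conditions was called at these genes. Of the 12 tested sites, 0 were detected more or less often in hypoxia with DEX (6 h and 24 h together, 6 libraries) than in normoxia with DEX (3 libraries), also 0 at an unadjusted p under 0.05 (Fisher's exact test, two-sided). The same test called 0% of 2938 sites of the series, with 260 at an unadjusted p under 0.05. Its smallest p in this design is 0.0119, which passes the adjustment only if many sites reach it together. At the 6 sites called in all 9 DEX libraries it can show no difference. The 0 calls thus cannot tell whether hypoxia changed detection. At 4 of the 12 sites, namely the Ass1 site, the outermost Tat site and 2 Gpt2 sites, the share of calling libraries was lower in hypoxia, and at the remaining 8 it was equal. With PBS, 0 of 8 tested sites were called different between hypoxia and normoxia (0% of 632 sites of the series) in the same test. Also 0 had an unadjusted p under 0.05, against 3 over the series. With 6 and 3 libraries the same limit on p holds there.

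The number of sites called with PBS varied between libraries and times, and is given with no test. The 3 normoxia PBS libraries called 7, 2 and 2 of the 20 sites, the 6 h hypoxia PBS libraries 1, 9 and 6, and the 24 h hypoxia PBS libraries 0, 0 and 0. The last 3 lists held 260, 153 and 78 peaks in all, and their minimum stood for 42.6 to 51.9 normalized tags. Weaker binding was not detectable there. The 6 h hypoxia PBS replicate 2 library had a higher minimum (56.3) and called 9 sites. Its share of tags in peaks was 1.23%, against 0.39, 0.20 and 0.15% in the 24 h hypoxia PBS libraries. Why the numbers of sites differ was not tested. With DEX the libraries called 17, 11 and 10 sites in normoxia, 10, 11 and 8 after 6 h, and 6, 8 and 12 after 24 h. The 3 groups with DEX overlap in these numbers. Normoxia DEX replicate 1, with 3659 peaks, held 6 of the 8 sites found in 1 library, and normoxia PBS replicate 1 held the other 2. Sites found in 1 library made up 40% of the sites of these genes and 59.1% of all sites.

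**Figure D3:**
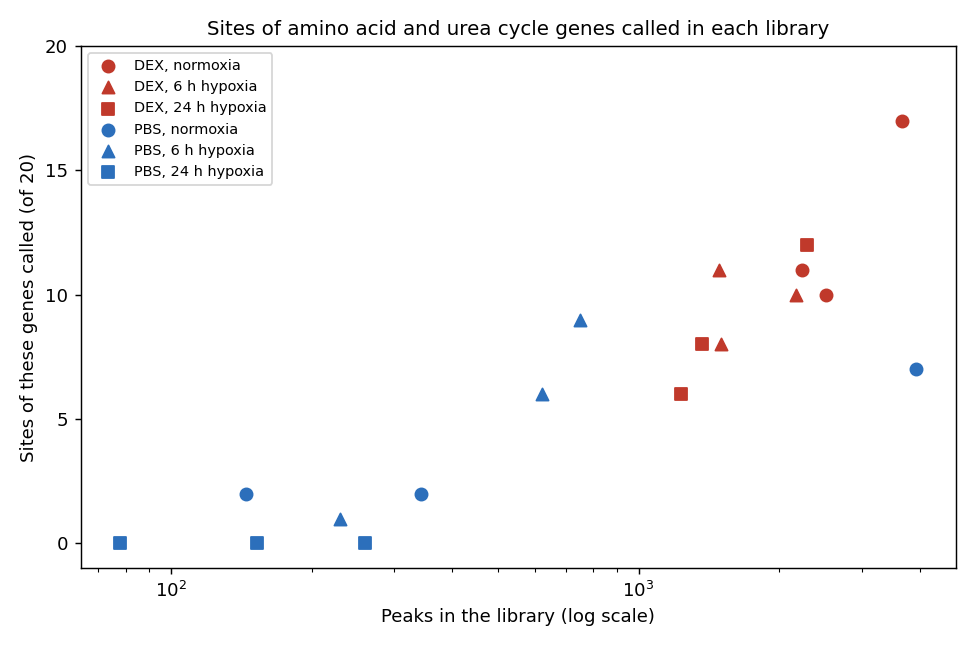
Number of the 20 sites called in each library (vertical axis) against the number of peaks in its list (horizontal axis, log scale). DEX libraries (red) call 6 to 17 sites and PBS libraries (blue) 0 to 9. The 3 libraries of 24 h hypoxia with PBS (blue squares) call 0, and normoxia PBS replicate 1 has the longest list and calls 7.

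Tag counts at the 6 sites called in all 9 DEX libraries gave no call for hypoxia either. In limma on log2 tags, with each library centred on its median and p-values adjusted over 935 sites, 0 of 6 differed between 6 h and 24 h hypoxia together and normoxia, also 0 at an unadjusted p under 0.05. Over all 935 sites 3.1% were called higher and 2.14% lower. The log2 changes were 0.10 ± 0.11 (SE) at Cps1, -0.14 ± 0.17 at Got1 and 0.08 ± 0.22 at Gpt2. At Tat they were -0.04 ± 0.17 at 7.90 kb, 0.04 ± 0.26 at 6.20 kb and -0.02 ± 0.16 at 2.59 kb, and the lowest adjusted p of the 6 sites was 0.704 in limma. Without centring, the median of all 935 sites was 0.15 lower (log2) in hypoxia than in normoxia, and 0.29 lower after 24 h, so these changes are relative to the other sites.

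The times taken singly showed small differences of either sign. At 6 h, 0 of 6 sites were called (1.6% of all sites higher, 0.856% lower), and at 24 h 0 of 6 (2.99% higher, 3.21% lower), also 0 at an unadjusted p under 0.05 in both, in limma. Cps1 changed by -0.08 ± 0.13 at 6 h and 0.28 ± 0.13 at 24 h (log2, SE, limma adjusted p = 0.857 and 0.235). Got1 changed by -0.02 ± 0.19 at 6 h and -0.26 ± 0.19 at 24 h, and the Tat site at 7.90 kb by 0.16 ± 0.20 and -0.23 ± 0.20. Between 24 h and 6 h, 0 of 6 were called (0.428% of all sites higher, 1.39% lower), and 1, Cps1, had an unadjusted limma p under 0.05 (log2 difference 0.36 ± 0.13, adjusted p = 0.186). On the tag scale Cps1 had 1 of 6 hypoxia libraries above and 3 below all 3 normoxia libraries, so the groups overlapped. For Got1 these numbers were also 1 and 3, the one above being 6 h hypoxia DEX replicate 2. On the centred log2 scale of the fit they were 2 above and 1 below for Cps1, and 0 above and 0 below for Got1.

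**Figure D4:**
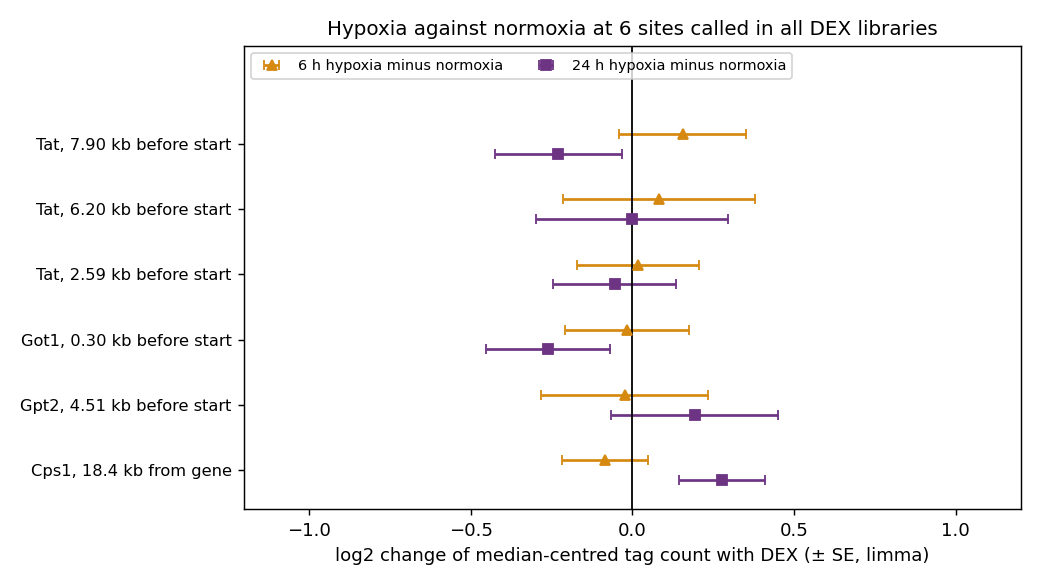
Log2 change of the median-centred tag count in DEX libraries (horizontal axis, limma estimate ± SE) at the 6 sites called in all 9, for 6 h hypoxia minus normoxia (triangles) and 24 h hypoxia minus normoxia (squares). Estimates run from -0.26 (Got1, 24 h) to 0.28 (Cps1, 24 h), and none passed the adjusted threshold.

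For each site called in all 9 DEX libraries the most similar site elsewhere was looked up. After centring each library and each site, the Cps1 site differed least from a site 1831 bp from Sys1 (root mean square difference 0.0725 log2 over 9 libraries). The Gpt2 site at 4.51 kb was closest to a site 5254 bp from Ankrd31 (0.0955), and the Tat site at 2.59 kb to a site inside Morc3 (0.135). These were the closest of 6 such pairs. Each is the least of many differences, so its small size is a result of the choice and a description only.

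The wider pathway was described from a list of 62 other genes of amino acid breakdown and the urea cycle, all found in the gene table. Of these, 38 were the nearest gene of a site, with 56 sites in all. A site in 3 or more libraries was found at 23 of the 62, and at 1613 of all 21883 protein-coding genes. The list was chosen, not drawn at random, and this difference was not tested. The test of DEX against PBS could be run at 28 of the 56 sites. Of these 28 sites 17 (60.7%) were higher and 0 lower with DEX, against 55.3% higher of all tested sites. Their median difference in the share of calling libraries was 0.611. The 17 sites belonged to 14 genes. Hgd, the homogentisate dioxygenase that acts downstream of Tat in tyrosine breakdown, had a site inside the gene in 9 DEX libraries at 163 ± 72.6 tags and in 2 PBS libraries. Hpd, which takes up the product of Tat, had one 14241 bp away in 9 DEX and 0 PBS libraries at 77.9 ± 25.1 tags.

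Both mitochondrial carriers that serve the urea cycle had a called site in 9 DEX libraries. Slc25a13, the aspartate and glutamate carrier, had 116 ± 35.7 tags with DEX and was called in 3 PBS libraries, and Slc25a15, the ornithine carrier, had 112 ± 52.2 tags and was called in 2. Of the tryptophan genes downstream of Tdo2, Haao had 114 ± 28.5 tags in 9 DEX libraries and was called in 2 PBS libraries. Ido2, an enzyme that opens the tryptophan ring as Tdo2 does, had 91.3 ± 26.2 in 9 DEX and 0 PBS libraries. Cdo1, the cysteine dioxygenase, had the highest mean of the 10 genes named here, with 186 ± 62.0 tags in 9 DEX and 0 PBS libraries. The glycine decarboxylase gene Gldc had 94.8 ± 23.5 in 9 DEX libraries and was called in 1 PBS library. Aldh4a1 of proline breakdown (77.2 ± 17.99) and the glutaminase gene Gls2 (60.7 ± 15.8) had a called site in 8 DEX and 0 PBS libraries. Of the list's sites 17 were called in all 9 DEX libraries, and 0 of them were called for hypoxia against normoxia in limma, where 3.1% of all sites were called higher and 2.14% lower, so a count of 0 among 17 is near the background.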

How the data were processed

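GR ChIP-seq of mouse liver was analysed in 18 libraries, grouped by their titles. The 3 inputs entered only through the peak caller. Per the submitters' processing notes, Trimmomatic, BWA 0.7.17, SAMtools 1.10 and HOMER were used with mm10. Per the file headers, HOMER called peaks in each library alone against the input of its oxygen condition, at 4-fold over input and over local tags with a Poisson p of 1e-04. For HOMER, a version was not given in the sources. The deposited signal is the authors' normalized tag count per 10000000 tags. The deposited score, not scaled to depth, ranked peaks for the equal-length alternative, and the deposited fold (ratio) over input served for the 8-fold alternative.

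Sites, genes (21883 protein-coding, RefSeq, GRCm38.p6) and promoters were matched in Python 3.11.15 with pandas 2.3.3, and tag counts fitted with limma 3.58.1 (trend) in R 4.3.3. DEX against PBS was tested at sites in 3 or more libraries, hypoxia against normoxia in 2 or more, at a threshold of 0.05. DEX against PBS in tag counts was to be fitted only for sites in all 18 libraries, of which these genes had 0. Sites in 3 or more libraries were described singly, others by count and range. Of the pathway list at most 10 called genes were named, by detections and mean tags, and of the closest profiles 3. The exact Cochran-Mantel-Haenszel test and limma were tried on simulated data with known answers. The simulated hypoxia changes were larger than those estimated at these genes, and the hypoxia comparison of detection was not simulated. How small a change could be found was thus not tested. The genes, lists and tests were chosen with earlier results of these data known.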

Additional observations from a re-analysis of the deposited data

Results flagged for a closer look

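In 4 of 12 groups checked, 1 library lay far from the others of its group. It was each time 6 h hypoxia DEX replicate 2 among the 6 hypoxia DEX libraries, with 370.7 tags at Got1 and 263.3, 232.1 and 287.6 tags at the Tat sites 7.90, 6.20 and 2.59 kb before the start. Chance flags about 1 in 20 groups, and the 4 flags come from 1 library. That library was the shallowest, at 5772670 tags, its minimum of 50 tags stood for 86.6 normalized tags, and its median at the 935 sites called in all 9 DEX libraries was 202.7 against 89.7 to 156.3 in the others. Without this library 7 of 12 sites were again called more often with DEX in the exact Cochran-Mantel-Haenszel test, as were 1523 of 2540 sites over the series. Also without it, 0 sites of these genes were called in each of the 4 hypoxia comparisons of tag counts in limma. Those comparisons called 1.56 to 6.45% of all 961 sites in either direction.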

How the results depend on the processing

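The number of sites of these genes detected more often with DEX, 7 of 12, was 5 to 8 when each library was left out in turn. In those runs 54.2 to 63.8% of all tested sites were called in either direction, and percentages below give the same share. The number was 6 without normoxia PBS replicate 1 and 6 h hypoxia DEX replicate 2 together (56.6%), an alternative chosen after seeing the data. It was 7 with an overlap of 100 bp (55.1%), with one more detection required (65.3%), and within 20 kb (of 11 sites) or 100 kb (55.4% each). It was 8 at 8-fold over input (58.4%), 9 with the exact rank test of tag counts (67.1%) and 5 of 6 at the common limit of 86.6 tags (62.5%). With every list held to its 78 highest scoring peaks, 0 of the sites were left to test, while 28 of 135 sites of the series were called higher and 13 lower with DEX. With the replicate number as a block the number was 5, and 921 of 2563 sites over the series were called (35.9%). Got1 and the outermost Tat site then lost their calls (adjusted p = 0.106 each, exact Cochran-Mantel-Haenszel test). At both, every stratum where only 1 library called the site favoured DEX, so that test could give no lower p. Same-numbered DEX libraries correlated at 0.006 to 0.506 in their deviations, 7 of 9 pairs over 0.1. Of the 9 libraries 6 correlated best with their own number, so same-numbered libraries tended to resemble each other. The labels do not say what a number stands for, and the main tests used no block. Calls lost with the block depend on that choice. The 4 hypoxia comparisons of tag counts and the 2 of detection called 0 sites of these genes under every alternative run, while the limma calls over all sites (29 higher, 20 lower) were 44 and 33 with the replicate block, 2 and 7 without centring, 7 and 11 with the share of tags in peaks as a covariate, and 12 and 7 without normoxia DEX replicate 2. Depth limits detection, since a peak needed 11.5 to 86.6 normalized tags depending on the library.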
